A study of Mus musculus with 3 samples.

Results

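The glucagon-secreting alpha cells of mouse islets were compared between a wild type (WT) library and a library made 5 weeks after Taf4 inactivation. Cells were chosen by their measured hormone RNA, as barcodes in which glucagon (*Gcg*) made up at least 15% of all UMIs (unique molecular identifiers, 1 for each captured transcript), with *Ins2* under 10% and *Sst* and *Ppy* each under 2%. This rule selected 2376 of 12000 barcodes in WT (19.8%, exact binomial 95% interval 19.1 to 20.5) and 2514 of 11229 at 5 weeks (22.4%, 21.6 to 23.2), so 4890 cells of the 25524 in the series. A library made at 1 week held 158 such cells among 2295 barcodes (6.88%, 5.88 to 8.00) and is given beside the others as values only. *Gcg* and the other hormones set the selection, so their levels are a description of the chosen cells. The shares of barcodes are a description too, since the authors filtered mixed-hormone cells from the WT sample alone and down-scaled it to 12000 cells.

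The islets of Langerhans came from C57/Bl6 mice. The mutants carried floxed *Taf4*, which encodes a subunit of the general transcription factor TFIID, and an *Ins1*::Cre-ERT2 driver, a tamoxifen-activated recombinase made in insulin-producing beta cells. The driver is thus made in another cell type than the alpha cell, but a beta cell that lost *Taf4* and turned on *Gcg* would also meet the rule, and the counts cannot tell such cells from other alpha cells. The control library is labelled wild type. In the paper, *Taf4*+/+ controls carried the driver and received tamoxifen, and its results call the single-cell control islets *Taf4*+/+. Its methods name only a male WT mouse, so whether this mouse received tamoxifen or carried the driver is not stated directly. Each library held 300 islets, from 1 WT mouse or pooled from 2 mutant mice, dissociated, sorted for live cells and captured by droplets with 3′ end sequencing. There was 1 library a condition, so no test of the condition was possible and no p-value is given. Intervals are exact, at 95%, and cover counting error only, and a gene is called higher or lower where the libraries differed by at least 2-fold.

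Alpha cells release glucagon when blood glucose is low, and glucagon drives glucose output by the liver. They make proglucagon and cut it to glucagon with the protease encoded by *Pcsk2*, store it in dense granules, and keep their identity through a set of transcription factors. Alpha cells sit beside beta cells and respond to insulin, somatostatin and amino acids.

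The chosen cells carried alpha-cell RNA that the rule did not use. *Irx2*, an Iroquois transcription factor, was at 126 CPM in WT, 150 at 1 week and 187 at 5 weeks, against 4.67 and 3.00 CPM in beta cells of the WT and 5-week libraries. *Ttr*, encoding transthyretin, was at 70227 CPM in WT alpha cells and 32180 at 5 weeks, and at 2798 and 1802 in beta cells. CPM are counts scaled to 1000000 UMIs left after removal of hormones and acinar digestive enzymes, which took 42.4% of alpha-cell UMIs in WT and 47.2% at 5 weeks. The selected cells just above the *Gcg* limit, with 15 to 18% of UMIs, numbered 25 in WT and 36 at 5 weeks, and those just below it, with 12 to 15%, numbered 13 and 31. *Ttr* in the WT cells was at 38836 CPM just inside and 46642 just outside the limit, and at 5 weeks at 14944 and 29510.

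The libraries stood apart in depth, sex and cell filtering. The median alpha cell held 758 UMIs in WT, 1801 at 5 weeks and 20093.5 at 1 week. All mice were labelled male, yet the WT alpha cells held 4157 UMIs of *Xist*, the RNA that coats the inactive X chromosome of females, and 4 genes of the Y chromosome, *Uty*, *Kdm5d*, *Ddx3y* and *Eif2s3y*, are not listed in its table. Alpha cells at 5 weeks held 0 *Xist* UMIs and, in that order, 59, 41, 188 and 243 UMIs of those Y-linked genes, so the sex difference between these libraries and the condition cannot be told apart. The authors removed probable doublets and mixed-hormone cells from the WT table alone. Of the barcodes with 15% *Gcg* or more, the limits on other hormones dropped 439 of 2815 in WT (400 for *Ppy*, 43 for *Ins2* and 0 for *Sst*) and 808 of 3322 at 5 weeks (370 for *Ppy*, 311 for *Ins2* and 215 for *Sst*, some cells failing more than 1 limit). The WT and 5-week tables shared 33 barcode sequences, of which 1 was an alpha cell in both.

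Of 15429 genes listed in both tables, 4627 had at least 100 UMIs in the alpha cells of both libraries together and were compared. The median gene had a log2 ratio of 5 weeks over WT of 0.16, and the middle 90% of genes lay between -0.54 and 0.98. Higher at 5 weeks by 2-fold or more were 206 genes (4.45% of those compared), of which 41 had a counting interval wholly above 2-fold. Lower by 2-fold or more were 43 genes (0.929%), of which 15 had an interval wholly beyond 2-fold. With TMM scaling, which takes the bulk of genes as unchanged, the median became -0.02 and the calls 113 higher and 68 lower, so the share of higher calls went from 82.7% to 62.4%. With hormones and acinar enzymes kept in the totals that share was 68.7%, with the stricter hormone limits 72.0% and in cells of 500 to 1500 UMIs 69.2%.

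**Figure D1:**
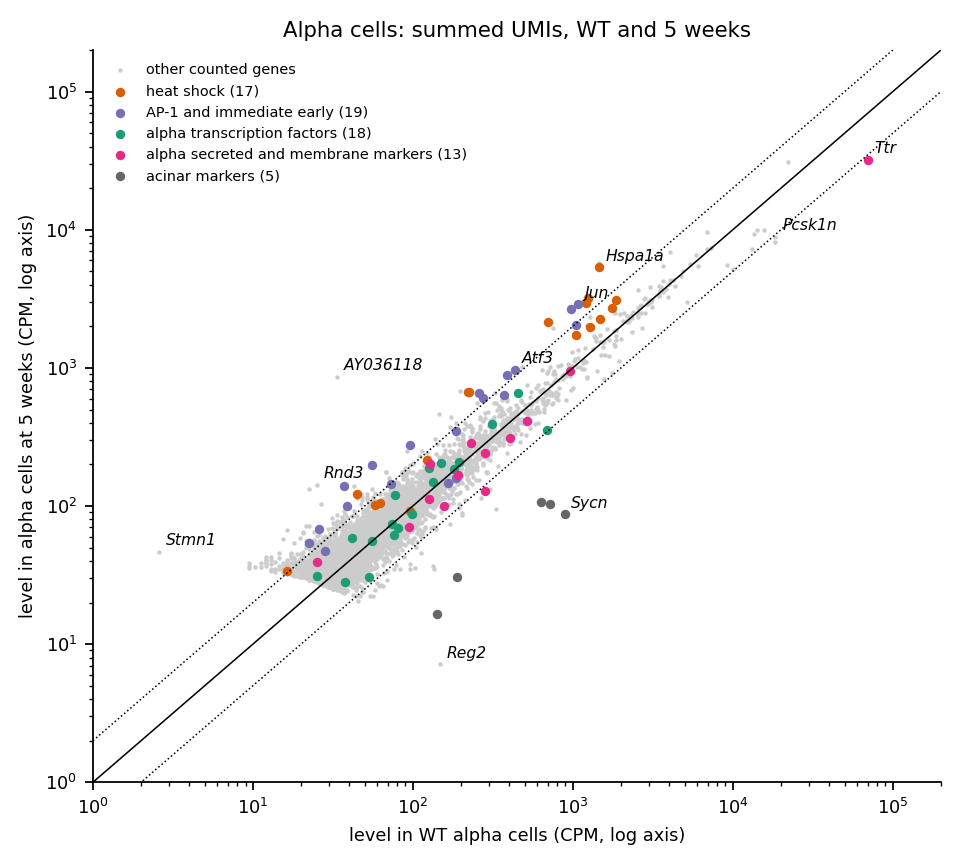
Each point is a gene, with its level in WT alpha cells (x axis, CPM, log scale) against its level at 5 weeks (y axis, CPM, log scale), from UMIs summed over 2376 and 2514 cells. The solid line marks equal levels and the dotted lines a 2-fold difference. Heat shock (orange) and immediate early genes (violet) lie mostly above the solid line and in part above the upper dotted line, alpha transcription factors (green) lie inside the dotted lines, and acinar markers (grey) lie below the lower one. *Xist*, at 0 UMIs at 5 weeks, is not drawn.

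Heat shock genes were higher at 5 weeks than in WT. Heat shock proteins are chaperones that refold or clear damaged proteins, and their genes are switched on by heat shock factors at heat shock elements in their promoters. Of 17 heat shock genes compared, 8 were at least 2-fold higher at 5 weeks and 0 lower, and the median log2 ratio was 0.81, against 0.16 over all genes. The interval lay above 0 for 16 of the 17, but the share of all compared genes with such an interval was not counted. Summed, the list took 12910 CPM in WT, 5208 at 1 week and 27453 at 5 weeks, so the 1-week library was the lowest and the 5-week library the highest.

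*Hspa1a*, an inducible HSP70 chaperone gene at chr17:34969359-34972156, was at 1461 CPM in WT, 4.22 at 1 week and 5353 at 5 weeks. Its log2 ratio of 5 weeks over WT was 1.87 (1.80 to 1.95). Its near-identical neighbour *Hspa1b*, at chr17:34956429-34959238, was at 1246, 1.41 and 3185 CPM (log2 ratio 1.35, 1.27 to 1.44). How reads were split within this pair is uncertain, but neither gene was near its WT level at 1 week. *Dnaja1*, an HSP40 co-chaperone, was at 704, 176 and 2134 CPM (log2 ratio 1.60, 1.49 to 1.71). *Hsph1*, which recharges HSP70, was at 222, 36.1 and 665 CPM (log2 ratio 1.59, 1.39 to 1.78). Its level at 1 week was the lowest of the 3 libraries, as for *Dnaja1*. *Hspd1*, the mitochondrial chaperonin HSP60, was at 226 CPM in WT, 375 at 1 week and 673 at 5 weeks, and so was the exception, with 1 week above WT. *Bag3*, a co-chaperone for protein clearance, and *Hsp90aa1*, the inducible HSP90, had log2 ratios of 1.44 (1.02 to 1.90) and 1.29 (1.21 to 1.37). The constitutive chaperones *Hsp90ab1*, with 1858 CPM in WT and 3130 at 5 weeks, and *Hspa8*, with 1772 and 2701, stayed under 2-fold, at 0.75 and 0.61. *Chordc1*, an HSP90 co-chaperone, was the only member of the 17 below 0, at -0.05 (-0.38 to 0.29).

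The promoters of the heat shock genes are shown because members of the list moved together. RefSeq promoters (GRCm38.p6, 250 bases before to 50 after the start) were found for 14 of the 17 genes, and 10 of these (71.4%) held the inner heat shock element GAANNTTC on either strand, against 9.04% of 27025 genes with a promoter. A gene counted if any of its promoters matched. By promoter, 11 of 19 (57.9%) held the element, against 7.86% of all promoters. The *Hsph1* promoters overlap each other, and a promoter of *Hspd1* overlaps that of its neighbour *Hspe1*, so the matches need not all be separate sites. Below, capitals mark that match in promoters of *Hspa1a* (chr17:34972107-34972406, minus strand), *Hsph1* (chr5:149636266-149636565, minus strand) and *Dnaja1* (chr4:40722218-40722517, plus strand). The promoter shown was picked for its match, and of the 3 listed for *Dnaja1* only this 1 holds it.
Hspa1a: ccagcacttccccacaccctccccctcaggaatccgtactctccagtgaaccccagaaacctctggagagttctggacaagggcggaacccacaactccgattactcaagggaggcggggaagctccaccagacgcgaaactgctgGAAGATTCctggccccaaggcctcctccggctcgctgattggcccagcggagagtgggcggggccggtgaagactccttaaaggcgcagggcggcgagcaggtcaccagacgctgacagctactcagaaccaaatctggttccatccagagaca
Hsph1: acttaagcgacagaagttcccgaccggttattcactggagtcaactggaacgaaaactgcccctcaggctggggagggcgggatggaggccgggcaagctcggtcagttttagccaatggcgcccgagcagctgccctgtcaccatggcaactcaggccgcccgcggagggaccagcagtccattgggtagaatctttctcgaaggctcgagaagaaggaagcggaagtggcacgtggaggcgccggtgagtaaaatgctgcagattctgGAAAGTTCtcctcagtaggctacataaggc
Dnaja1: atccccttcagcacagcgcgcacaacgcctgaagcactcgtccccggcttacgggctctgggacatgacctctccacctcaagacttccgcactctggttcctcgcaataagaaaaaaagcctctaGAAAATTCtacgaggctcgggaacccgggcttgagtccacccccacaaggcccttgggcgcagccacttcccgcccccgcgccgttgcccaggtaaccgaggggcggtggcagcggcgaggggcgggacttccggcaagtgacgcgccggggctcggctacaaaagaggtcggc
The match begins 104 bases before the start in *Hspa1a*, 124 before it in *Dnaja1* and 20 after it in *Hsph1*. A match says only that these letters are in the window. *Hspb8* and *Bag3* hold it as well, and so does *Chordc1*, whose level differed little, while *Dnajb1*, *Hspa4*, *Hspa4l* and *Ahsa1* do not.

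Immediate early genes, which are switched on within minutes of a stimulus and include the AP-1 factors, were the list with the highest median. Of 19 compared, 12 were at least 2-fold higher at 5 weeks and 0 lower. The median log2 ratio was 1.21, against 0.16 over all genes. An interval above 0 was found for 17 of the 19, again with no share over all genes counted. The list summed to 5799 CPM in WT, 2007 at 1 week and 13173 at 5 weeks. *Jun*, an AP-1 subunit, was at 1079 CPM in WT, 293 at 1 week and 2890 at 5 weeks, a log2 ratio of 1.42 (1.34 to 1.51). *Jund*, another AP-1 subunit, was at 969, 1003 and 2665 CPM (log2 ratio 1.46, 1.37 to 1.55), and was not low at 1 week. *Fos*, the partner of Jun, was at 1041, 4.22 and 2032 CPM (log2 ratio 0.97, 0.87 to 1.06). This gene thus stood just under 2-fold at 5 weeks and was almost undetected at 1 week.

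*Atf3*, a stress-induced repressor, was at 435, 52.1 and 973 CPM (log2 ratio 1.16, 1.02 to 1.30). *Zfp36*, which shortens the life of inflammatory mRNAs, was at 37.1, 5.16 and 141 CPM (log2 ratio 1.92, 1.46 to 2.42). *Klf2*, a Krüppel-like factor, was at 55.2, 1.88 and 199 CPM (log2 ratio 1.85, 1.48 to 2.25). The lowest library for each of these was the 1-week library. *Klf6* had a log2 ratio of 1.54 (1.25 to 1.84), *Ier5* one of 1.40 (0.83 to 2.01) and *Btg2*, an antiproliferative gene, one of 1.21 (1.06 to 1.36). *Dusp1*, a phosphatase that shuts off MAP kinases, and *Btg1* were the only members below 0, at -0.17 (-0.43 to 0.09) and -0.21 (-0.45 to 0.03). RefSeq promoters were found for 17 of the 19 genes, and the cAMP response element TGACGTCA was in 2 of them, *Btg2* and *Dusp1* (11.8%, against 2.03% of all genes), the AP-1 site TGANTCA in 0 (8.97% of all genes) and the heat shock element in 1, *Jun*.

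**Figure D2:**
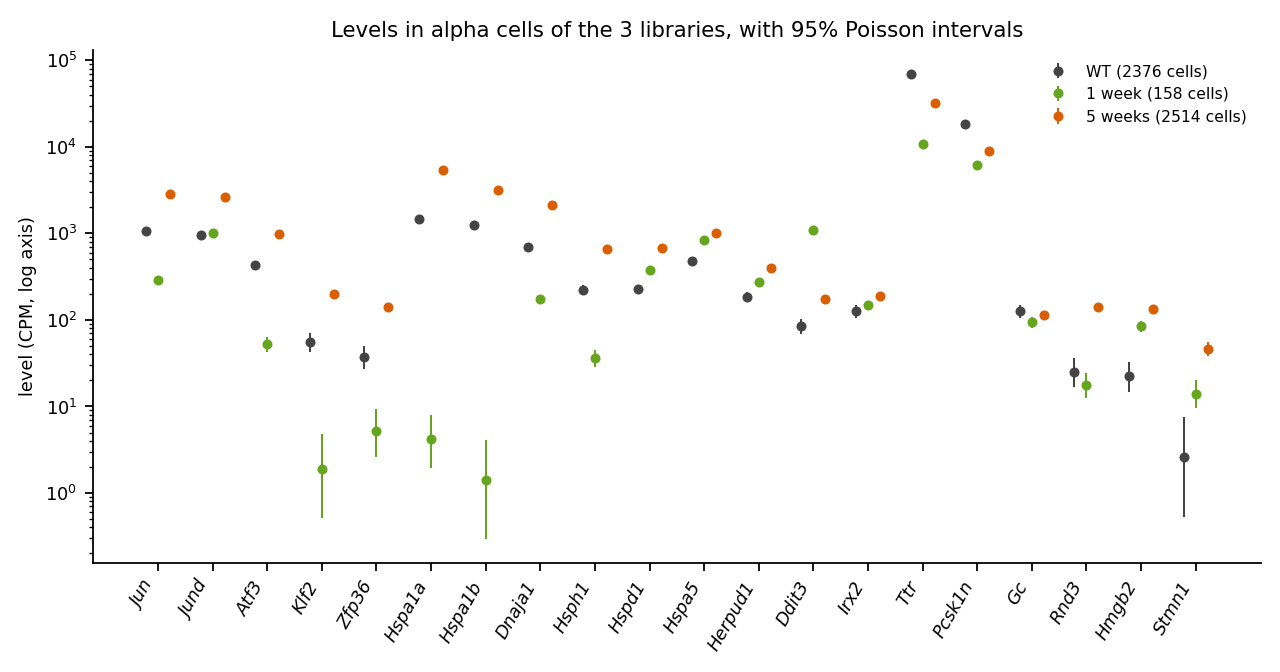
Levels (y axis, CPM, log scale) of 20 genes in the alpha cells of the WT (grey), 1-week (green) and 5-week (orange) libraries, with exact Poisson 95% intervals. For *Hspa1a*, *Hspa1b*, *Klf2* and *Zfp36* the 1-week level lies far below both others, and *Ddit3* is highest at 1 week.

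The higher levels lay in many 5-week cells, while other 5-week cells were within the WT range. To compare cells of unlike depth, each was thinned to 400 UMIs other than hormones and acinar enzymes, which left out shallower cells (860 in WT, 66 at 5 weeks, 14 at 1 week). The median alpha cell then held 4 heat shock UMIs in WT (quartiles 2 to 7), 2 at 1 week (1 to 3) and 10 at 5 weeks (4 to 16). For immediate early genes the median was 2 in WT (1 to 3), 1 at 1 week (0 to 1) and 5 at 5 weeks (2 to 7.25). Cells with none of the 19 immediate early genes made up 21.3% in WT, 45.1% at 1 week and 8.66% at 5 weeks. Among 5-week cells the lowest 10% held 2 or fewer heat shock UMIs and the highest 10% held 22 or more. The most common count was 2 UMIs in both libraries, in 16.0% of WT and 6.90% of 5-week cells. The 5-week lower quartile, 4, was the WT median, so the 5-week cells overlapped those of WT and spread further. Without thinning, the same comparison is given by the summed levels of the 2 lists above.

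**Figure D3:**
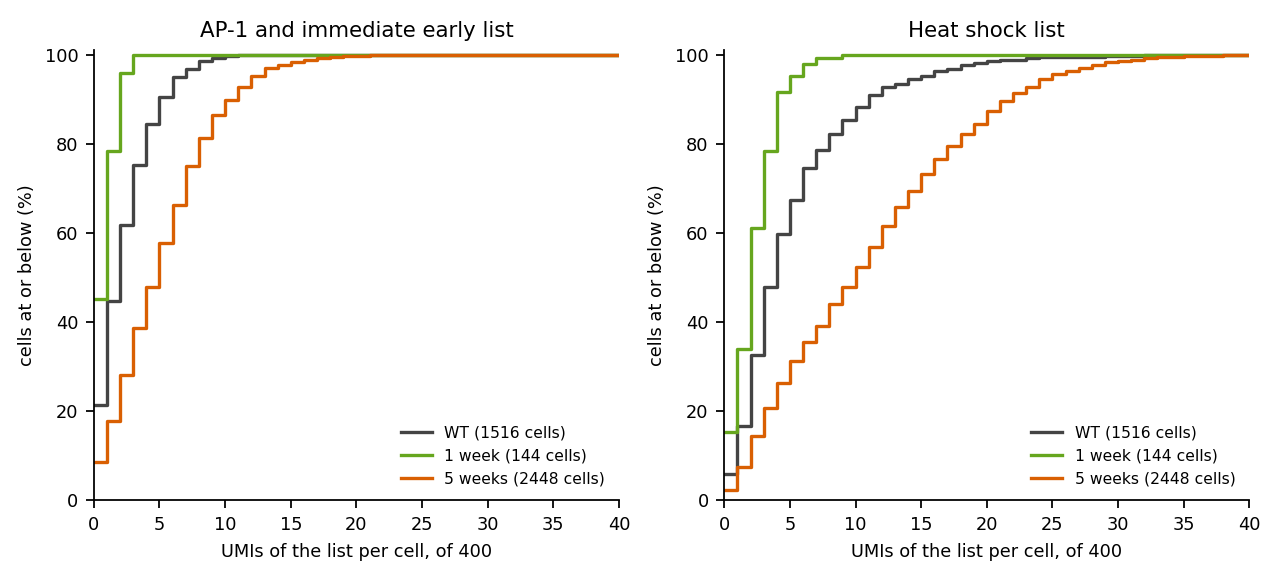
Cumulative share of alpha cells (y axis, %) by the number of UMIs of the immediate early list (left) or the heat shock list (right) per cell, of 400 UMIs (x axis), in 1516 WT, 144 1-week and 2448 5-week cells. The 5-week curves lie to the right of WT and the 1-week curves to the left, with medians of 5, 2 and 1 UMIs on the left and 10, 4 and 2 on the right.

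Chaperones of the endoplasmic reticulum (ER), where proglucagon is folded, were shifted less. Of 28 genes compared, 3 were at least 2-fold higher and 0 lower, and the median log2 ratio was 0.35. With TMM scaling or with totals of all UMIs, 0 of the 28 reached 2-fold higher and 1 was lower. *Herpud1*, which helps clear misfolded ER proteins, was at 186 CPM in WT, 277 at 1 week and 402 at 5 weeks, a log2 ratio of 1.11 (0.90 to 1.33). *Hspa5*, the ER chaperone BiP, was at 481, 835 and 1024 CPM (log2 ratio 1.09, 0.96 to 1.22), and *Sdf2l1*, a BiP partner, at 85.4, 34.3 and 172 CPM (log2 ratio 1.01, 0.70 to 1.34). *Hsp90b1*, the ER form of HSP90, stayed under 2-fold with 805 and 1028 CPM in WT and at 5 weeks. *Dnajb9*, a BiP co-chaperone, pointed the other way, at 211 and 111 CPM, also under 2-fold. RefSeq promoters were found for 23 of the 28 genes, and 7 of them (30.4%) held the ER stress response element ERSE on either strand, against 0.137% of all genes. With beta, delta and acinar RNA subtracted, *Hspa5* was at 1.02 and *Herpud1* at 1.04. In beta cells of the same libraries *Hspa5* had a log2 ratio of 1.85 and *Herpud1* one of 2.07.

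In the integrated stress response, in which Atf4 and its targets answer amino acid shortage or ER stress, 2 of 14 genes were at least 2-fold higher and 2 lower, with a median of 0.37. *Atf3* and *Ddit3* were the higher members, and with TMM scaling neither reached 2-fold (0.99 and 0.88). *Ddit3*, encoding the stress factor CHOP, was at 85.4 CPM in WT, 1096 at 1 week and 177 at 5 weeks, a log2 ratio of 1.05 (0.73 to 1.38). *Atf4* itself was at 182, 499 and 281 CPM and stayed under 2-fold, at 0.63 (0.41 to 0.86). Both genes were thus highest at 1 week. The lower members were *Eif4ebp1*, a brake on translation, at 65.5, 216 and 26.6 CPM, and *Nupr1*, a stress gene that acinar cells express strongly, at 135, 175 and 34.9 CPM. Scaled to *Prss2*, acinar RNA would be expected to give 103% of the *Nupr1* UMIs of WT alpha cells, yet *Nupr1* was highest at 1 week, where acinar markers summed to 1.41 CPM, and the part of acinar RNA in its difference was not tested.

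The transcription factors of alpha-cell identity had a median log2 ratio of 0.07, against 0.16 over all genes. None of the 18 compared was 2-fold apart (0 higher, 0 lower, and with TMM scaling 1 lower, *Etv1*). Over all compared genes 4.45% were higher and 0.929% lower, so 0 of 18 is near the share of all genes. *Irx2* had a log2 ratio of 0.57 (0.30 to 0.85) and *Irx1* one of 0.45 (0.20 to 0.71). Both had intervals above 0 without reaching 2-fold. *Pax6* and *Foxa2*, factors shared by islet cells, were at 0.04 (-0.20 to 0.28) and 0.01 (-0.43 to 0.46). The lowest members were *Etv1*, at 687, 258 and 355 CPM with a log2 ratio of -0.95 (-1.09 to -0.81), and *Myt1*, at -0.81 (-1.31 to -0.30). The median of this list was between -0.10 and 0.25 over the other ways of choosing and scaling the cells, so it has no steady direction.

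Secreted products differed in both directions, and *Ttr* and *Pcsk1n* were the abundant ones lower by 2-fold. Among 13 secreted and membrane markers of alpha cells, 0 were higher and 2 lower by 2-fold, with a median of -0.23. *Ttr*, a carrier of thyroid hormone and retinol that alpha cells make in large amounts, was at 70227 CPM in WT, 10688 at 1 week and 32180 at 5 weeks, a log2 ratio of -1.13 (-1.14 to -1.11). *Ang*, a secreted ribonuclease, was at 283, 1716 and 128 CPM (log2 ratio -1.14, -1.37 to -0.91). *Ttr* was thus lowest at 1 week and *Ang* highest there. *Gc*, the vitamin D binding protein, was at 126, 93.9 and 113 CPM, at -0.15 (-0.44 to 0.15), and *Tmem27*, which encodes collectrin, at -0.01 (-0.11 to 0.09). *Slc7a2*, a transporter of cationic amino acids, was at 518, 219 and 410 CPM.

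Of 15 genes for granule cargo and prohormone processing, 0 were higher and 1 lower, with a median of 0.07. *Pcsk1n*, encoding the granule peptide proSAAS, an inhibitor of the prohormone convertase PC1/3, was at 18498 CPM in WT, 6112 at 1 week and 8864 at 5 weeks, a log2 ratio of -1.06 (-1.09 to -1.03). *Pcsk2*, the convertase that makes glucagon, was at 3546, 2888 and 3710 CPM and differed little between WT and 5 weeks, at 0.07 (0.01 to 0.12). *Resp18*, a granule protein of endocrine cells, was at 15733, 5300 and 10006 CPM (log2 ratio -0.65, -0.68 to -0.63). The granins *Scg2* and *Scg3* pointed the other way, at 0.50 (0.39 to 0.61) and 0.55 (0.42 to 0.69), and *Chga* was at 0.17 (0.12 to 0.22). The median of the list was between -0.11 and 0.14 over the alternatives.

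The hormones themselves describe the selection. *Gcg* took a median 33.9% of a cell's UMIs in WT, 24.5% at 1 week and 41.0% at 5 weeks. *Pyy*, a gut hormone also made in alpha cells, took 1.58% of alpha-cell UMIs in WT and 1.59% at 5 weeks, and *Ppy* 0.305% and 0.278%. *Ins2* took a median 2.55% in WT and 3.16% at 5 weeks. Within the insulin RNA found in alpha cells, *Ins1* made up 27.0% in WT, 6.92% at 1 week and 3.51% at 5 weeks, against 26.0%, 7.47% and 3.78% in the beta cells of the same libraries. In each library the alpha cells thus carried insulin RNA in nearly the ratio of its beta cells.

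Lists of fuel use and secretion held few differences of 2-fold. Over all compared genes 4.45% were higher and 0.929% lower, so counts of 0 in such short lists say little about them. Glycolysis and glucose-responsive genes had 0 of 15 higher and 0 lower, with a median of 0.43, and exocytosis genes 0 of 13 and 0 of 13, with a median of 0.17. Ion channels had 0 of 12 either way with a median of -0.04, where every interval crossed 0. *Abcc8*, a subunit of the ATP-sensitive potassium channel that couples fuel to secretion, was at 364 and 327 CPM in WT and at 5 weeks. Amino acid and nutrient transport genes had 0 of 9 either way with a median of 0.08. Of 5 receptors compared, 0 were higher and 1 lower, *Sstr3*, a somatostatin receptor, at 59.5, 30.5 and 27.7 CPM and a log2 ratio of -1.10 (-1.60 to -0.60). Among the 21 antioxidant genes 1 was higher and 0 lower, with a median of 0.08. That gene was *Hmox1*, heme oxygenase, at 31.0, 62.0 and 62.2 CPM (log2 ratio 1.00, and 0.83 with TMM scaling), while *Gpx3*, a secreted glutathione peroxidase, was at 1772, 1081 and 914 CPM (log2 ratio -0.96).

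RNA encoded by the mitochondrial genome was lower as a whole. None of the 13 genes was above 0, 2 were lower by 2-fold, and the median log2 ratio was -0.55. With TMM scaling 4 were lower by 2-fold and the median was -0.72, while in cells of 500 to 1500 UMIs the median was -0.38. Summed, they took 81364 CPM in WT, 41889 at 1 week and 47578 at 5 weeks. *mt-Co1*, a cytochrome oxidase subunit, was at 18317 CPM in WT, 11576 at 1 week and 8186 at 5 weeks, and *mt-Nd6* at 96.6, 17.8 and 34.9. Nuclear-encoded subunits of the same respiratory chain had 1 of 77 higher and 0 lower with a median of -0.11. Of the 77, 32 had an interval below 0 and 12 above it, with no share over all genes counted. *Ndufs1* was the higher gene, at 25 and 50.7 CPM, and was under 2-fold with TMM scaling (0.85). Cytosolic ribosomal protein genes had 1 of 77 higher, *Rpl7l1*, and 0 lower, with a median of 0.02.

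**Figure D4:**
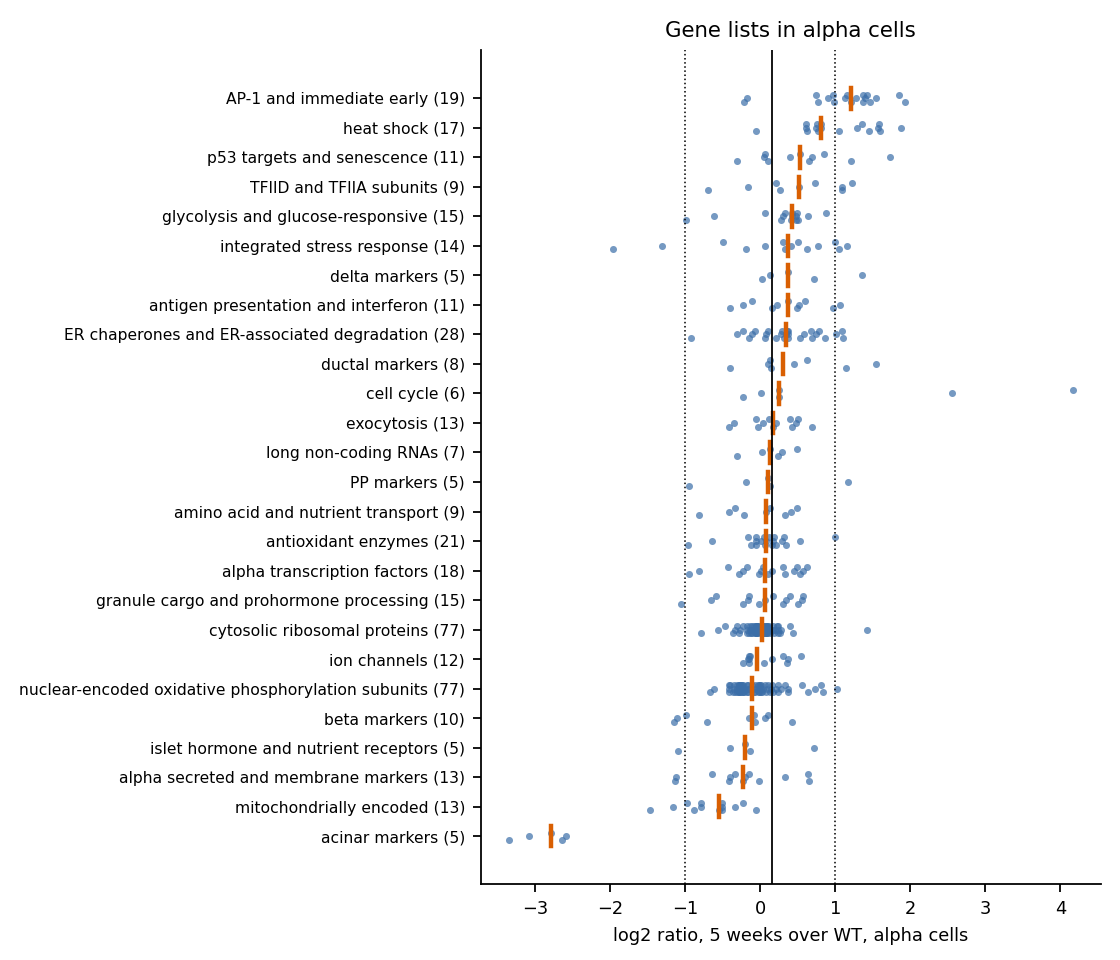
Each point is a gene of a list (y axis, with the number compared), placed by its log2 ratio of 5 weeks over WT in alpha cells (x axis), and the orange bar is the list's median. The black line is the median of all genes, 0.16, and the dotted lines mark 2-fold. *Xist*, at 0 UMIs at 5 weeks, is left out. The highest medians are those of immediate early and heat shock genes, 1.21 and 0.81, and the lowest that of acinar markers, -2.79.

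Of the genes with the highest ratios, the following belong to none of these lists. *AY036118* at chr17:39848112-39898385 was at 33.6 CPM in WT, 94.8 at 1 week and 861 at 5 weeks, a log2 ratio of 4.68 (4.22 to 5.17), and *Gm42418* was at 1455, 3624 and 5766 CPM (log2 ratio 1.99, 1.91 to 2.06). Both are non-coding annotations that overlap ribosomal RNA sequence, so the source of their reads is uncertain, and in beta cells they were at 4.67 and 2.16 and in delta cells at 4.38 and 2.04. *Rnd3*, a small GTPase that loosens actin fibres, at chr2:51130439-51149111, was at 25, 17.8 and 142 CPM (log2 ratio 2.50, 1.96 to 3.1). Its values in delta and beta cells were 2.41 and -0.48. *Fhl2*, a LIM-domain cofactor of transcription at chr1:43123071-43198343, was at 16.4, 3.75 and 66.6 CPM (log2 ratio 2.02, 1.34 to 2.79). *Rem2*, a GTPase that dampens calcium channels, was at 15.5, 3.28 and 57.8 CPM (log2 ratio 1.90, 1.19 to 2.69).

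*Ezr*, which ties membrane to actin, had a log2 ratio of 2.03 (1.13 to 3.08), *Cyr61*, a matrix protein, one of 1.96 (1.05 to 3.01), *Msl3l2* one of 1.95 (1.41 to 2.53), *Rnf34* one of 1.91 (1.00 to 2.96) and the linker histone gene *Hist1h1e* one of 1.83 (1.02 to 2.74). These genes had few UMIs in WT, from 11 for *Ezr* to 31 for *Msl3l2*. A filter on 100 UMIs in both libraries together admits a low WT gene more readily when it is high in the deeper 5-week library. Under a filter on mean level (30 CPM), chosen after seeing the data, 151 of the 206 higher genes remained, and 43 of the 43 lower genes.

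The cell-cycle list had 2 of 6 genes higher and 0 lower, with a median of 0.25, against 4.45% of all compared genes higher. Only these 6 of its 24 genes passed the filter of 100 UMIs, and 8 of the 24 had 0 UMIs in WT. *Stmn1* and *Hmgb2*, with 3 and 26 UMIs in WT, passed only with their 5-week UMIs. The count of higher genes is thus in part set by the filter. *Stmn1*, a regulator of microtubules that dividing cells express, at chr4:134468320-134473843, had 3 UMIs in WT (2.59 CPM) and 117 at 5 weeks (46.4 CPM), with 14.1 CPM at 1 week (log2 ratio of 5 weeks over WT 4.16, 2.58 to 6.46). These 117 UMIs lay in 49 of 2514 cells, and 18 cells with 2 or more held 86 of them. The same 18 cells held 81 UMIs of 18 other cell-cycle genes, 16.2 per 10000 UMIs, against 0.232 in 5-week cells without *Stmn1* and 0.189 in WT cells without it. *Hmgb2*, a chromatin protein also high in dividing cells, at chr8:57511843-57515999, was at 22.4, 84.0 and 132 CPM (log2 ratio 2.56, 1.98 to 3.20). Of its 334 UMIs at 5 weeks, 45 were in those 18 cells and 278 in cells without *Stmn1*.

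Targets of p53 and senescence genes had 2 of 11 higher and 0 lower, with a median of 0.53. *Gadd45a*, induced by DNA damage and other stress, was at 21.6 CPM in WT, 89.7 at 1 week and 71.3 at 5 weeks, a log2 ratio of 1.73 (1.12 to 2.39), and the other was *Btg2*. *Cdkn1a*, the cell-cycle inhibitor p21, stayed under 2-fold at 0.85 (0.53 to 1.18). Antigen presentation and interferon genes had 1 of 11 higher, *Irf1*, at 25 and 52.3 CPM, and 0 lower, with a median of 0.37, and *Irf1* was at 0.89 with TMM scaling. Of 3 metallothionein and zinc transport genes, 1 was higher, *Mt2*, which binds metals, at 43.1 CPM in WT, 1286 at 1 week and 91.5 at 5 weeks, with 0 lower and a median of 0.68, and its log2 ratio of 1.09 was 0.91 with TMM scaling. Subunits of TFIID and TFIIA had 3 of 9 higher (*Taf15*, *Taf7* and *Taf11*) and 0 lower, with a median of 0.52. With TMM scaling or totals of all UMIs 1 of the 9 remained, *Taf15*, and the median was between 0.051 and 0.73 over the alternatives. *Taf4* itself gave 18 UMIs in WT and 19 at 5 weeks (15.5 and 7.53 CPM), and *Taf4b*, its paralogue, 2 and 10. Those 3′ tags need not lie in the deleted part of *Taf4*, so they check nothing about its deletion.

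The lowest genes were those of acinar cells, which make digestive enzymes, together with *Xist*. All 5 acinar markers compared were lower, with a median of -2.79 and a sum of 2639 CPM in WT, 1.41 at 1 week and 352 at 5 weeks. *Sycn*, a zymogen granule protein, was at 889 CPM in WT, 0.469 at 1 week and 87.2 at 5 weeks, *Zg16* at 717, 0 and 104 and *Spink1* at 141, 0 and 16.6. WT held 91 acinar cells, and the 5-week and 1-week libraries 0. In beta cells *Sycn* had a log2 ratio of -4.03 and in delta cells one of -3.49. *Reg2*, a secreted regenerating protein, was at 148 CPM in WT and 7.13 at 5 weeks, a log2 ratio of -4.38 (-5.17 to -3.67), and is not listed in the 1-week table. *Reg1*, its relative, was at 637, 0 and 106 CPM. *Xist* was at 3584 CPM in WT and 0 at 5 weeks, at least 3016-fold lower from a floor of 3 UMIs, and *Eif2s3x*, an X-linked gene with a Y-linked relative, was at 56.1, 74.6 and 22.2 CPM. *8430408G22Rik*, *Gm47283* and *5330439M10Rik* had log2 ratios of -1.85, -1.78 and -1.54, and *Fnip1*, a partner of folliculin, one of -1.33.

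Markers of other cells that the selection could hold were checked in the same way. Beta markers had 0 of 10 higher and 2 lower with a median of -0.11, and the lower genes were *Ppp1r1a* and *Papss2*. For *Ppp1r1a* 64.4% of the WT UMIs and 52.8% of the 5-week UMIs would be expected from beta-cell RNA. Delta markers had 1 of 5 higher, *Pcp4l1*, with a median of 0.37, and markers of pancreatic polypeptide cells 1 of 5 higher, *Isoc1*, with a median of 0.10. Of 8 ductal markers 2 were higher, the keratins of simple epithelia *Krt8*, at 226, 100 and 660.5 CPM with a log2 ratio of 1.55 (1.36 to 1.74), and *Krt18*, at 251, 208 and 557 CPM with one of 1.15 (0.97 to 1.34), which was 0.98 with TMM scaling. *Epcam* was at 0.62 and *Spp1*, an abundant product of ducts, at 109 CPM in WT and 82 at 5 weeks. One gene each passed the filter for endothelial cells (*Igfbp7*, 0.31) and macrophages (*C1qa*, 0.16), and 0 for T and B cells, mesenchyme, Schwann cells and red blood cells. Among the long non-coding RNAs *Malat1* was at 22155 CPM in WT and 31002 at 5 weeks, and the list had 0 of 7 higher and 1 lower, *Xist*, with a median of 0.13.

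Beta and delta cells were other barcodes of the same libraries as the alpha cells, and their values are set side by side without a test. Heat shock genes had a median log2 ratio of 0.81 in alpha, 1.04 in beta and 1.00 in delta cells, and immediate early genes 1.21, 1.62 and 1.00. *Hspa1a* was at 1.87, 1.69 and 1.62, and *Jun* at 1.42, 1.54 and 1.35. These genes thus stood higher at 5 weeks in all 3 cell classes. The integrated stress response had medians of 0.37, 0.74 and 0.32, with *Ddit3* at 1.05, 1.97 and 0.31. For the mitochondrially encoded genes the medians were -0.55, -0.12 and -0.87, and for alpha transcription factors 0.07, -0.42 and -0.26. *Ttr* was at -1.13 in alpha, -0.64 in beta and -1.55 in delta cells, and *Pcsk1n* at -1.06, -1.52 and -0.85. *Krt8* was at 1.55, 1.19 and 0.66, and *Hmgb2* at 2.56, 0.76 and 0.46.

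**Figure D5:**
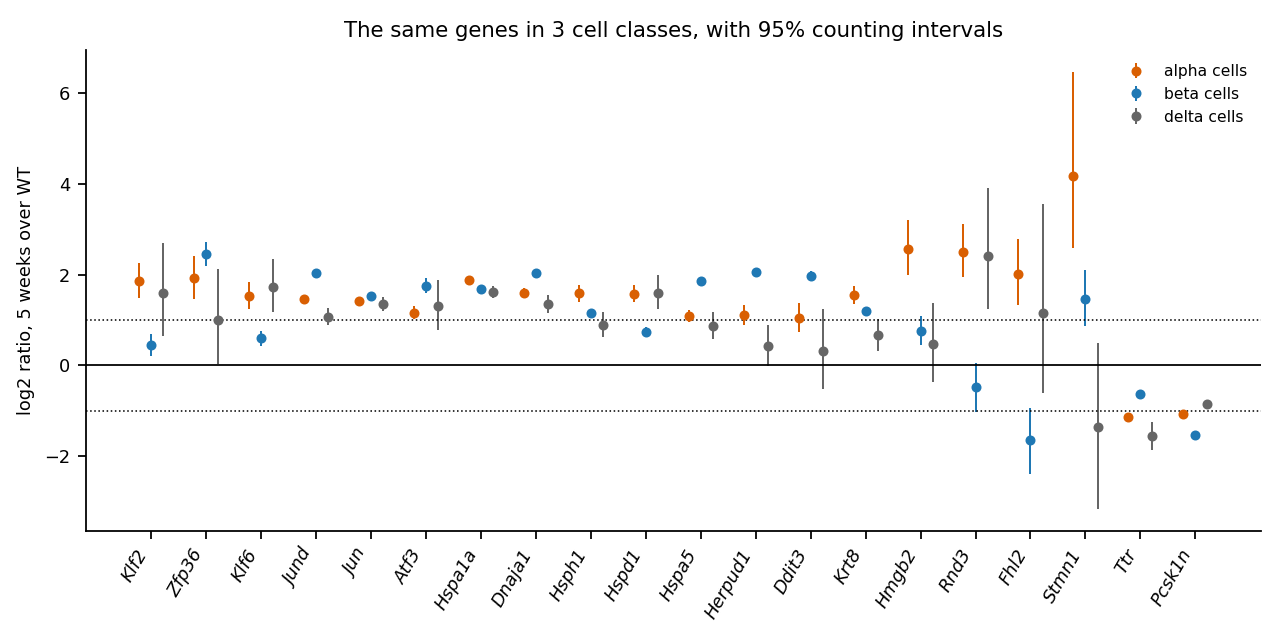
Log2 ratio of 5 weeks over WT (y axis) of 20 genes in alpha (orange), beta (blue) and delta (grey) cells of the same libraries, with exact 95% counting intervals. The black line marks 0 and the dotted lines 2-fold. *Hspa1a* and *Jun* lie between 1.35 and 1.87 in all 3 classes, while *Fhl2* is at 2.02 in alpha and -1.65 in beta cells.

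Named genes were picked largely for a large ratio in these data, so how many stayed 2-fold apart is a description and no test. Of all 206 higher genes, 168 remained with the *Gcg* limit at 25%, 58 with the stricter hormone limits, 67 with thinned cells and 113 with TMM scaling. Of the 43 lower genes, 39, 21, 17 and 43 remained in that order. The smaller cell sets also compared fewer genes. Of 65 named genes at least 2-fold apart, 64 stayed so with the *Gcg* limit at 25%, 60 with *Ins2* under 3% and *Sst* and *Ppy* under 0.5%, 57 with cells thinned to 400 UMIs and 53 with TMM scaling. Median heat shock values lay between 0.64 and 1.11 and immediate early values between 1.03 and 1.28 over all alternatives. The WT and 5-week libraries differ in mouse, sex, depth and doublet removal as well as in genotype, and perhaps in driver and treatment. Each was also a separate islet preparation, dissociation, sort and capture. These cannot be told apart from the condition, for the heat shock and immediate early genes as for the others.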

How the data were processed

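Single-cell 3′ RNA libraries of sorted live islet cells were deposited as tables of raw UMI counts by gene and barcode. Per the methods, the authors aligned reads to mm10 and counted UMIs with Cell Ranger 3.1 (bcl2fastq 2.17.1.14 and Seurat 3.1.4 are also named in the submitters' processing notes), and for WT alone removed doublets and mixed-hormone cells. No normalization had been applied to the counts.

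UMIs were summed over the alpha cells of each library, without hormones and acinar enzymes, and scaled to CPM. Doublets were limited only by the hormone limits, and no doublet caller was run. Ratios carry exact binomial intervals and levels exact Poisson ones (scipy 1.17.1, Python 3.11.15). The coverage of the ratio intervals alone was checked, on simulated Poisson counts that hold no added spread between cells or animals. A gene was compared where its UMIs in the alpha cells of WT and 5 weeks came to 100 or more. Beta cells had *Ins2* of 15% or more with *Gcg*, *Sst* and *Ppy* under 2%, delta cells *Sst* of 5% or more with *Ins2* and *Gcg* under 10% and *Ppy* under 2%, and acinar cells 20% or more acinar enzymes. The RNA expected from other cells was their profile scaled to the *Ins2*, *Sst* or *Prss2* UMIs of the alpha cells. TMM factors came from edgeR 4.0.16 in R 4.3.3. Genes listed in 1 table were not compared (with 100 or more UMIs, 0 in WT and 2 at 5 weeks, both Y-linked).

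Genes named are the 15 highest and 15 lowest ratios, and of each list at most 6 members 2-fold apart and the 2 with most UMIs, with hormones, *Ttr*, *Gc*, *Irx2*, *Taf4*, *Taf4b*, *Ddit3*, *Herpud1*, *Xist* and *Ddx3y*. Some genes under this rule are not reported here. Other members were named after their values were seen, to show how a list varied. The cells, lists and rules were chosen with earlier results of these data known. Coordinates and promoters are from RefSeq (GRCm38.p6). Gene counts under other limits, totals, depths and filters are given in the closing section.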

Additional observations from a re-analysis of the deposited data

Results flagged for a closer look

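*Fhl2* was higher at 5 weeks in alpha cells and lower in beta cells of the same libraries, with log2 ratios of 2.02 and -1.65. The interval in beta cells did not include 0. In delta cells the value was 1.15. With 1 library a condition the difference between the cell classes was not tested.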

How the results depend on the processing

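The number of genes at least 2-fold higher, 206, became 85 with *Ins2* under 3% and *Sst* and *Ppy* under 0.5%, 134 with totals of all UMIs, 113 with TMM factors, 81 in cells of 500 to 1500 UMIs and 88 with cells thinned to 400 UMIs. It was 62 and 663 with filters of 300 and 30 UMIs. The number lower, 43, became 68 with TMM factors, 26 with thinned cells, and 15 and 91 with those filters. The filters and smaller cell sets compare fewer or more genes by construction, and other causes were not tested. The median log2 ratio, 0.16, became 0.031 with all UMIs and -0.017 with TMM factors. The alpha share in WT was 17.7% with *Gcg* at 25% or more. At 1 week it was 8.15% with *Gcg* at 10%, 3.27% at 25% and 2.19% with 200 to 1500 detected genes and under 15% mitochondrial UMIs. At 5 weeks it was 20.9% with *Gcg* at 25% and 24.5% with those limits on genes. No named gene or list median that was called changed sign. With RNA of other cells subtracted, genes whose WT UMIs came mostly from acinar RNA were given no value, since the 5-week library held 0 acinar cells. A filter on a mean level of 30 CPM and the removal of barcodes found in both libraries were added after seeing the data, and without those barcodes 205 of the 206 higher and 43 of the 43 lower genes remained. No paired analysis was possible because each condition had 1 library. With 1 library a condition, the spread between animals is not measured, and counting intervals are narrower than that spread would make them.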
